A study of Mus musculus with 4 samples.

Results

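The genes described here encode 5 histone methyltransferases, Suv420h1, Suv420h2, Setd8, Suv39h2 and Ehmt2, of which Suv420h1 is the gene targeted in the cells studied. Each gene is represented by the array probes whose midpoint on mouse build mm9 lies within 100 kb of 1 given position: base 3790000 of chromosome 19 for Suv420h1, base 4690000 of chromosome 7 for Suv420h2, base 124890000 of chromosome 5 for Setd8, base 3370000 of chromosome 2 for Suv39h2 and base 35030000 of chromosome 17 for Ehmt2. In all, 94 of 169660 usable probes fell in these stretches, 19 at Suv420h1, 20 at Suv420h2, 17 at Setd8, 17 at Suv39h2 and 21 at Ehmt2. A further probe at Suv420h1, 62.0 kb below the position, and another at Suv39h2, 55.2 kb above it, carried an outlier flag on the control array and were left out. The files name no genes, so a value describes the stretch around a position, with its neighbouring genes, and not the transcribed unit alone.

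The cells were mouse embryonic fibroblasts, which are grown from the connective tissue of embryos, and the arrays measured when in S phase each stretch of DNA was copied. Those on the KO array had, by their labels, lost the floxed SUV4-20H1 allele, and the control array is their counterpart. The induced and the non-induced array both hold cells labelled as a suv4-20h mutant. The labels do not say what the induction was, which Suv4-20h gene the mutant lacks, whether control and non-induced cells also carry the floxed allele, or which part of it is flanked by recombination sites. The protocol gives 4-hydroxytamoxifen at 1 mM for 24 hours as the agent of deletion, on all 4 arrays alike, and the cell line has different numbers in different fields. Cells took up BrdU at 50 µM for 1 hour, 80000 of them were sorted by DNA content into fractions of early and of late S phase, and the new DNA was immunoprecipitated and amplified over the whole genome before labelling. Early DNA carried Cy3 and late DNA Cy5 on each array, with no dye swap. Timing is log2 of early over late signal, set to 0 at the median autosomal probe, so a higher value means earlier replication. Each group has 1 array and therefore no test and no p-value. Standard errors (SE) are over the probes of a stretch, which share the array and the DNA and are not replicates. A timing value is an average over the sorted cells, in which a shift of all cells and a shift of some cells cannot be told apart. The arrays carry DNA, so the fibroblast label could not be set against marker genes.

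Histone H4 is methylated at lysine 20 in steps. Setd8, now named Kmt5a, adds the first methyl group and is destroyed during S phase, while Suv420h1 (Kmt5b) and Suv420h2 (Kmt5c) add the second and the third. Dimethylated H4 lysine 20 is bound by a subunit of the origin recognition complex, and the trimethyl mark lies with methylated histone H3 lysine 9 in pericentric heterochromatin, which replicates late. Suv39h2 is one of the enzymes that trimethylate H3 lysine 9 there, and Ehmt2, also called G9a, mono- and dimethylates the same lysine in euchromatin. Early replication generally goes with gene-rich, transcribed chromatin and late replication with gene-poor, silent chromatin.

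The promoters of 3 of the genes are shown because the timing results turn on these genes: Suv420h1 as the targeted gene, Setd8 as the one stretch that passed the size limit between KO and control, and Suv39h2 as the one stretch that replicated late. They run from 250 bases before to 50 bases after the gene start, 5′ to 3′, as RefSeq lists them on build GRCm38.p6. This is not the build of the probes, and no probe was placed on them. Capitals mark CG, the dinucleotide that is methylated in mammalian DNA and that reads the same on both strands. Where RefSeq lists several starts, the most upstream one is shown.
Suv420h1, chr19:3767171-3767470, plus strand: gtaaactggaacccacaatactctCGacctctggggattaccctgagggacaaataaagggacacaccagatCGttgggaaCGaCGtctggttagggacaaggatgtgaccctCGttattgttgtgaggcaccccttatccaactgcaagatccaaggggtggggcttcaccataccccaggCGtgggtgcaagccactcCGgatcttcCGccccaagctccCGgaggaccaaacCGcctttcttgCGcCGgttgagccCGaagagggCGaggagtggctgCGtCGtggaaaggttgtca
Setd8, chr5:124439680-124439979, plus strand: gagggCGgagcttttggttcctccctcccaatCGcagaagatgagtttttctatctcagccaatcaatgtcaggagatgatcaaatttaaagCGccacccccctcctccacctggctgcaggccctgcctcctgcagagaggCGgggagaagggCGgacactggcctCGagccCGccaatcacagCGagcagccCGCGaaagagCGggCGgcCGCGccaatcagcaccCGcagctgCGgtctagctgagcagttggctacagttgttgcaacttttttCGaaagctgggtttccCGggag
Suv39h2, chr2:3474937-3475236, minus strand: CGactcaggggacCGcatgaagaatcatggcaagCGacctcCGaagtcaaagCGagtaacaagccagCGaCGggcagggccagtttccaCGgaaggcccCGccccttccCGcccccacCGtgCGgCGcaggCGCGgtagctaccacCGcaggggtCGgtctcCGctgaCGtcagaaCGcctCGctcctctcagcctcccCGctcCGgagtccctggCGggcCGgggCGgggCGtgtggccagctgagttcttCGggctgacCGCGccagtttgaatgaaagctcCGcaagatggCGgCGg
CG occurred 16 times at Suv420h1, 18 times at Setd8 and 33 times at Suv39h2, and in the promoters not shown 22 times at Suv420h2 and 28 times at Ehmt2. The median over all 32851 listed promoters was 7, and 94.6% of them held at least 1 CG. At least as many CG as in Suv39h2 were found in 8.56% of promoters, against 14.2% for Ehmt2, 23.1% for Suv420h2, 29.7% for Setd8 and 33.0% for Suv420h1. Among the 5, the promoter of Suv39h2 was the richest in CG, and a link between promoter CG and timing was not tested. Its GC content was 68.3%, against 70.3% for Ehmt2 and 57.3% to 59.7% for the other members.

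For the whole genome, timing was averaged in 12000 windows of 200 kb, the width of a stretch. From the 10th to the 90th percentile the windows spanned 2.31 in KO and 1.81 in control, and 2.70 in induced and 2.07 in non-induced cells, so the arrays differed in spread. The part of this spread in the differences at early and at late stretches was not tested. Shares and percentiles of differences are over all windows, early and late alike, and were not computed among windows of like timing. The median window difference was -0.16 for KO minus control and -0.13 for induced minus non-induced, with 64.6% and 63.9% of windows below 0. A window or stretch was called later or earlier where its difference reached 0.25 of the spread of the control or non-induced array, which is 0.45 and 0.52 in the pairs, and 3 SE. In KO against control 22.1% of windows were called later and 8.06% earlier, and in induced against non-induced 11.9% and 0.467%. Centred on the median window instead, the shares were 10.6% later and 17.9% earlier for KO, and 2.37% and 8.97% for induced. After quantile normalization they were 9.47% later and 9.22% earlier for KO, and 1.14% and 0.175% for induced. With arrays scaled to the same spread they were 13.6% and 6.40% for KO, and 1.87% and 0.0667% for induced, and after loess 20.3% and 8.36% for KO, and 7.58% and 1.47% for induced. The KO and control arrays lay on 1 slide and the induced and non-induced arrays on another, so the pairs share no array.

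Around Suv420h1, Suv420h2, Setd8 and Ehmt2 the DNA replicated early on all 4 arrays, while the stretch around Suv39h2 replicated later than the autosomal median on each. The mean at Suv39h2 was -0.15 ± 0.10 in KO and -0.42 ± 0.12 in control, and -0.74 ± 0.071 in induced and -0.47 ± 0.073 in non-induced cells (SE, n = 17 probes). It was the lowest of the members everywhere, and the gap to the next one up was 0.55 ± 0.14 in KO, 0.88 ± 0.16 in control, 1.36 ± 0.16 in induced and 0.95 ± 0.17 in non-induced cells. Among the early members no order held across arrays: Suv420h2 was the earliest in KO, Suv420h1 in control, Setd8 in induced and Suv420h2 in non-induced cells. Neighbours in those orders differed by 0.024 to 0.30, less than 2 SE of the gap in each case. Late is relative here, since the median window itself was at -0.39 in KO, -0.16 in control, -0.51 in induced and -0.26 in non-induced cells. Suv39h2 therefore stood above 54.6% of windows in KO and above 38.5% in control, and above 44.4% in induced and 41.2% in non-induced cells, near the middle of the genome on each array. The early members stood above 65.8% to 83.6% of windows in KO and 72.0% to 96.1% in control, and above 70.2% to 87.4% in induced and 69.0% to 76.8% in non-induced cells.

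**Figure D1:**
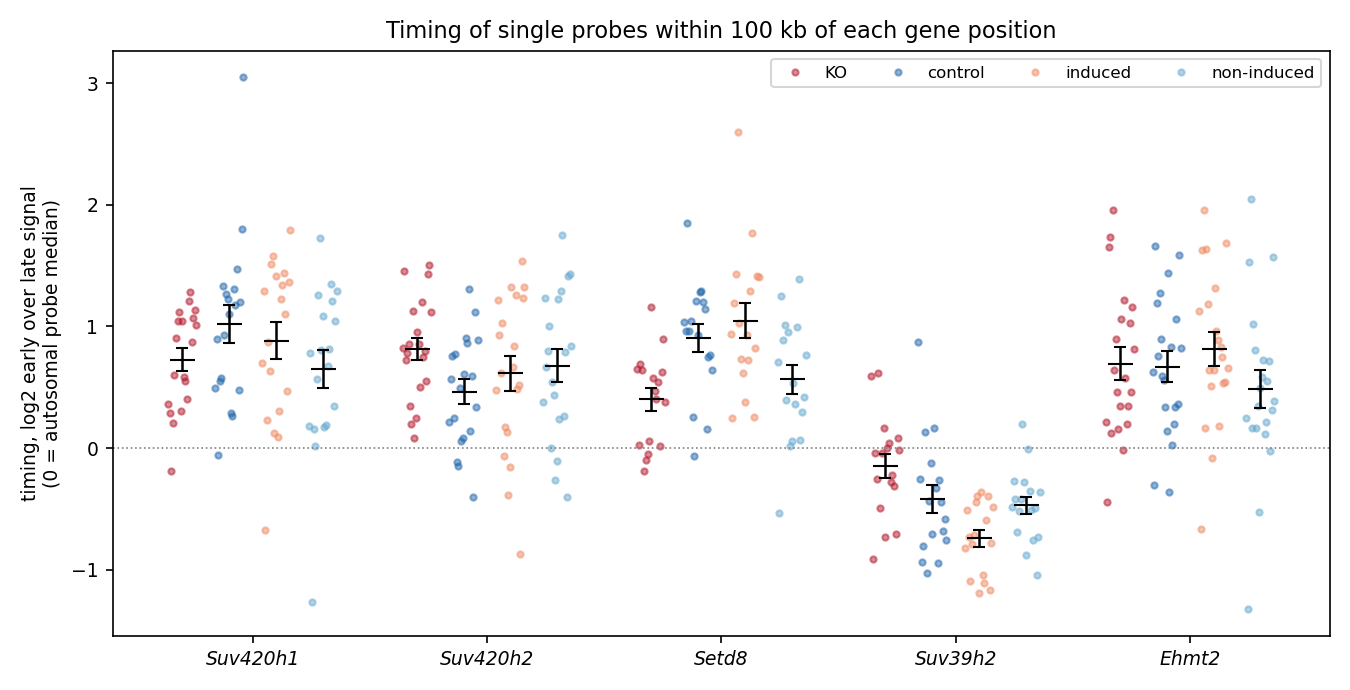
Timing (log2 of early over late signal, y axis) of single probes within 100 kb of each gene position. Points are probes in the order KO, control, induced, non-induced, and black bars are the mean and its SE over 17 to 21 probes on 1 array. Most probes of Suv420h1, Suv420h2, Setd8 and Ehmt2 lie above 0, and 0 to 6 of the 17 probes of Suv39h2 do.

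Suv420h1, the targeted gene, lies 0.63 Mb from the first probe of chromosome 19, in DNA that was early on all arrays from the first profile window, 500 kb below the gene, to 2 Mb above it. Its mean timing was 0.73 ± 0.095 in KO and 1.02 ± 0.16 in control, and 0.88 ± 0.15 in induced and 0.65 ± 0.16 in non-induced cells (SE, n = 19 probes). On each array 18 of the 19 probes lay above 0. The exception was the same probe each time, 77.8 kb below the position (chr19:3712144-3712203, mm9), which is printed as 5 spots per array. Its spots averaged -0.19 ± 0.18 in KO and -0.060 ± 0.26 in control, and -0.67 ± 0.17 in induced and -1.27 ± 0.068 in non-induced cells (SD over spots). In RefSeq the neighbours of Suv420h1 on the lower side are Ppp6r3, Lrp5 and 1810055G02Rik, and on the higher side Chka, Tcirg1 and Ndufs8. Among these, Lrp5 encodes a co-receptor of Wnt ligands, Chka encodes choline kinase alpha and Ndufs8 encodes a subunit of respiratory complex I.

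KO minus control was -0.29 ± 0.13 at Suv420h1, with 13 probes lower and 6 higher in KO, and was not called. This difference lay above 38.3% of all windows and was -0.13 relative to their median difference. It leaned on 1 probe 91.8 kb above the position (chr19:3881728-3881787), whose timing was 1.01 in KO and 3.05 in control. The late signal of that probe was 145 in KO and 53.8 in control and was not well above background on either array. Over the 17 probes well above background on all arrays the difference was -0.18 ± 0.096. Induced minus non-induced ran the other way, at 0.23 ± 0.081, with 15 probes higher and 4 lower in induced cells, and was not called either. It lay above 88.4% of windows. In this pair the early channel differed by -0.11 ± 0.080 and the late channel by -0.39 ± 0.089, each taken relative to its autosomal median. All 16 overlapping windows within 1 Mb of the gene were higher in induced than in non-induced cells, by 0.15 to 0.57. Among them 2, at 200 and 300 kb above the gene, were called earlier, beside 0.467% of all windows. In KO, 11 of the same 16 windows were lower than in control. None was called, beside 22.1% later and 8.06% earlier of all windows.

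For the targeted gene the signals themselves were examined, because DNA missing from most cells would lower the early and the late channel of a probe together. Gene ends on mm9 were not at hand, so the 5 probes within 25 kb of the position stand in for probes inside the gene, a distance set after the files had been seen and by position alone. All 5 were well above background in both channels on all 4 arrays. The probe 1.4 kb below the position (chr19:3788560-3788619) had an early signal of 2292 in KO and 3415 in control, and of 2441 in induced and 4305 in non-induced cells. Its late signal was 1016 in KO and 1597 in control, and 826 in induced and 1911 in non-induced cells. This probe was thus dimmer in both channels in KO and in induced cells, and among the 5 it had the lowest difference of total signal in the induced pair.

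The probe 8.9 kb below the position (chr19:3781077-3781136) had an early signal of 644 in KO and 1571 in control, and a late signal of 476 in KO and 673 in control. In the induced pair its early signal was 729 in induced and 1097 in non-induced cells, and its late signal was 602 in induced and 591 in non-induced cells. It was dimmer in both channels in KO only, and in induced cells only in the early one. The probe 7.7 kb above the position (chr19:3797678-3797737) had early signals of 2264 in KO and 2467 in control, and 1573 in induced and 2560 in non-induced cells. Its late signals were 1378 in KO and 2029 in control, and 1328 in induced and 2131 in non-induced cells, and relative to the array medians its log2 total differed by -0.17 in KO and by -0.38 in induced cells.

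The outer probes of the 5 differed between arrays as well. The one 19.2 kb below (chr19:3770805-3770864) had early signals of 1405 in KO and 1363 in control, and 1260 in induced and 1764 in non-induced cells, with late signals of 589 in KO and 570 in control, and 380 in induced and 501 in non-induced cells. The one 17.9 kb above (chr19:3807873-3807932) had early signals of 682 in KO and 796 in control, and 356 in induced and 424 in non-induced cells, with late signals of 425 in KO and 666 in control, and 260 in induced and 350 in non-induced cells. These values are on each array's own scale, whose autosomal median was 843 in KO, 917 in control, 684 in induced and 846 in non-induced cells for the early channel, and 804, 932, 613 and 763 in the same order for the late channel. All 5 probes stayed in the range of the genome's other probes: the dimmest early signal was 644 in KO and 356 in induced cells, while the 5th percentile of autosomal probes was 136 and 85.6 there. Probes differ in brightness, so this range cannot tell whether a probe lost part of its signal.

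Taken relative to those medians and averaged over both channels, the log2 total signal of the 5 probes differed by -0.28 ± 0.16 between KO and control and was lower in KO at 4 of them. Between induced and non-induced cells it differed by -0.24 ± 0.13 and was lower in induced cells, also at 4 of the 5, though the odd one out was another probe. The lowest single value, -0.73 in KO minus control, stood at the 13.3rd percentile of all autosomal probes, whose differences had an SD of 0.62. In the induced pair the lowest, -0.70, stood at the 3.45th percentile, with an SD of 0.375 over autosomal probes. Within 100 kb the total signal differed by -0.077 ± 0.094 between KO and control and by -0.25 ± 0.075 between induced and non-induced cells, so in the induced pair the lower signal was not limited to the 5 central probes. Relative to probes within 1 Mb, the central difference was -0.38 in KO and -0.088 in induced cells. These probes therefore did not show a loss of the gene's DNA that stood apart from the scatter of single probes, and a probe outside the deleted part could not show one. Timing of the same 5 probes was 0.72 ± 0.16 in KO and 0.83 ± 0.23 in control, and 0.70 ± 0.33 in induced and 0.80 ± 0.29 in non-induced cells, with differences of -0.11 ± 0.22 and -0.095 ± 0.17 that are within 1 SE.

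**Figure D2:**
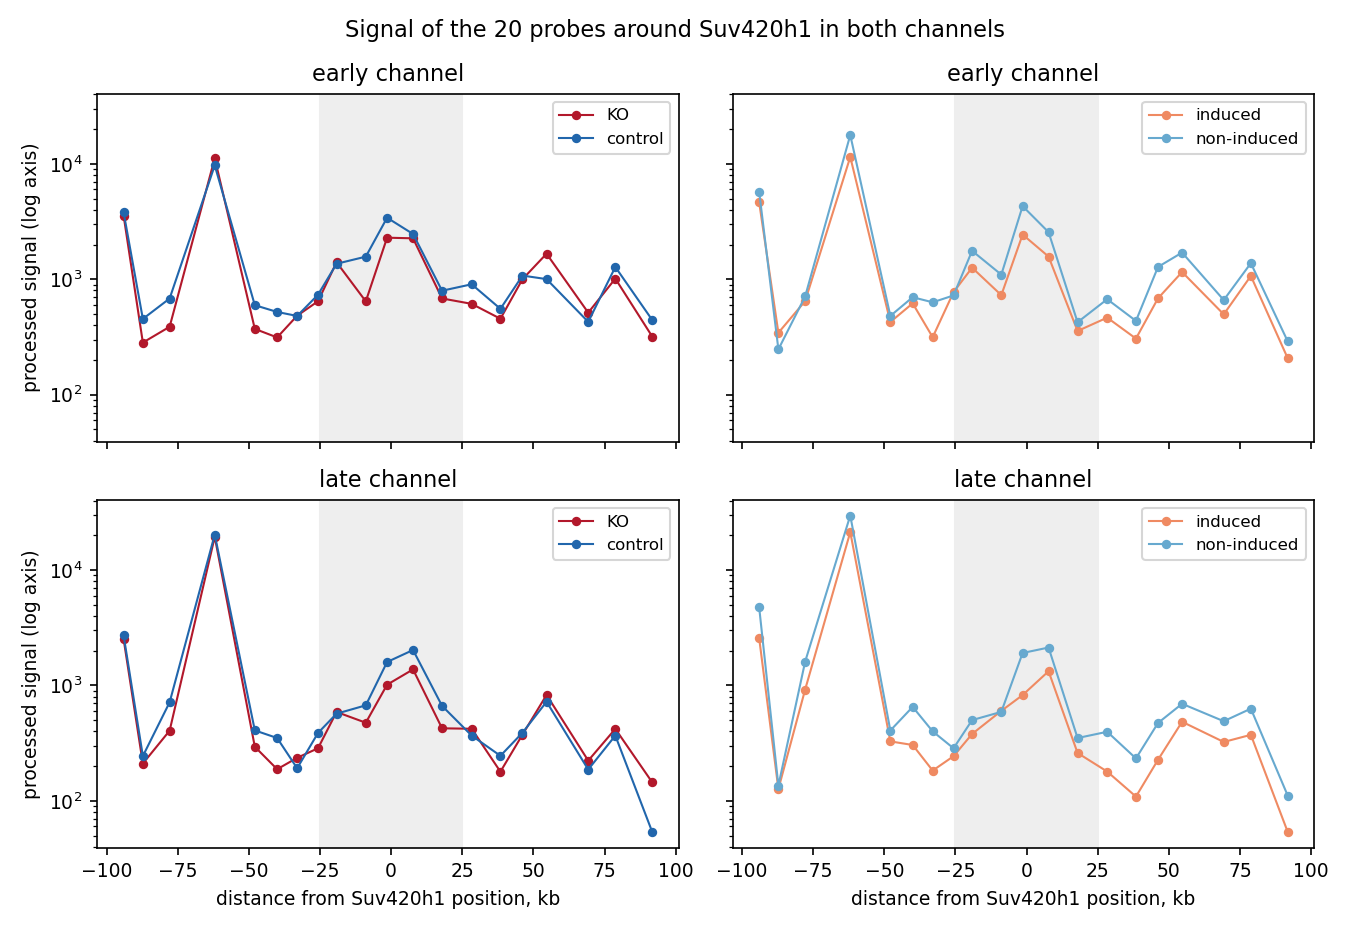
Processed signal (log y axis) of the 20 probes around Suv420h1 against distance from the gene position in kb, early channel above and late channel below, with KO and control on the left and induced and non-induced on the right. The grey band marks the 5 probes within 25 kb, which lie at 644 to 2292 (early) in KO and 796 to 3415 in control, and at 356 to 2441 in induced and 424 to 4305 in non-induced cells.

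Suv420h2, the close relative of Suv420h1 that makes mainly the trimethyl mark, sat in a small early domain on chromosome 7, 1.56 Mb from the chromosome's first probe. Mean timing was 0.82 ± 0.093 in KO and 0.46 ± 0.10 in control, and 0.61 ± 0.15 in induced and 0.68 ± 0.14 in non-induced cells (SE, n = 20 probes). All 20 probes lay above 0 in KO and 17 in control, and 16 in both induced and non-induced cells. The profile first fell below 0 at 300 kb below and 500 kb above the gene in KO, control and induced cells. In non-induced cells it did so at 400 kb below and 600 kb above. These edges rest on values near 0. At 300 kb below, the profile was -0.026 in induced and 0.0060 in non-induced cells, and at 500 kb above -0.019 and 0.084. At 1100 kb below the gene the profile was above 0 again, at 0.31 in KO, 0.068 in control, 0.25 in induced and 0.23 in non-induced cells. Its RefSeq neighbours are Hspbp1, Brsk1 and Tmem150b on the lower side and Cox6b2, Fam71e2 and Il11 on the higher side, where Il11 encodes a secreted cytokine and Brsk1 a protein kinase.

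KO was earlier than control at Suv420h2 by 0.35 ± 0.087, with 16 probes higher and 4 lower, which passed 3 SE but not the size of 0.45 needed for a call. It was higher than 87.5% of window differences. The early channel was higher in KO by 0.515 ± 0.10 and the late channel by 0.12 ± 0.11, so the early channel was brighter in KO, while the late channel lay about 1 SE from 0. The difference was smaller within 50 kb of the gene, 0.20 ± 0.086 over 12 probes, than at 50 to 100 kb, 0.58 ± 0.14 over 8 probes. In the profile 1 window of 17 within 1 Mb was called earlier, 200 kb above the gene, at 0.65 in KO and 0.18 in control. None was called later, and over all windows the shares were 8.06% earlier and 22.1% later. Induced and non-induced cells differed by -0.063 ± 0.064 at the gene, with 8 probes higher and 12 lower in induced cells, a value within 1 SE of 0. The sign of this difference was not the same in all settings of the processing.

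Setd8, the enzyme that starts H4 lysine 20 methylation, was the one member called, in KO against control. It lies on chromosome 5 in a broad early domain that reached at least 2 Mb below the gene. Above the gene, the profile first fell below 0 at 1300 kb in KO. It did so at 1400 kb in control and induced cells and at 1500 kb in non-induced cells. The window at 1400 kb holds 6 probes and was near 0 in control (-0.064) and in non-induced cells (0.021). Mean timing was 0.40 ± 0.093 in KO and 0.91 ± 0.11 in control, and 1.05 ± 0.14 in induced and 0.56 ± 0.12 in non-induced cells (SE, n = 17 probes). Probes ranged from -0.19 to 1.16 in KO and from -0.068 to 1.85 in control, and from 0.24 to 2.60 in induced and -0.53 to 1.39 in non-induced cells. The probe ranges overlapped in both pairs, and 14 of 17 probes stayed above 0 in KO, against 16 in control. RefSeq places 2810006K23Rik, Cdk2ap1 and Sbno1 on its lower side and Rilpl2, Snrnp35 and Rilpl1 on its higher side, and Cdk2ap1 encodes a binding partner of the cell cycle kinase Cdk2.

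KO minus control at Setd8 was -0.51 ± 0.11, with 14 of 17 probes lower in KO, beside a size limit of 0.45. A call of this direction was made in 22.1% of all windows, and 23.0% of windows had a lower difference, so the value is common on these arrays. Both channels were brighter in KO, the early one by 0.26 ± 0.071 and the late one by 0.72 ± 0.081. The total signal was therefore higher in KO, by 0.49 ± 0.052, which exceeded that of 92.1% of windows, and its part in the timing difference was not tested. The difference was -0.57 ± 0.15 over 10 probes within 50 kb and -0.41 ± 0.18 over 7 probes farther out, and it was the lowest of the 21 overlapping windows within 1 Mb, the only one of them called. The call was lost with normexp background correction (-0.34), loess (-0.41), the median over probes (-0.38), a radius of 250 kb (-0.18) or centring on the median window (-0.27).

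Induced cells were earlier than non-induced cells at Setd8 by 0.48 ± 0.099, with 15 of 17 probes higher, the opposite of the KO pair. The value missed the size limit of 0.52. It lay above 99.2% of all windows, early and late alike, where 0.467% were called earlier. It passed the limit with normexp (0.43), loess (0.52) and centring on the median window (0.73), each with that setting's own limit, and was 0.26 once the arrays had been scaled to equal spread. Here the early channel differed by 0.21 ± 0.076 and the late channel by -0.32 ± 0.11, and the total signal differed by -0.055 ± 0.082. The whole surrounding shared the direction: all 21 windows within 1 Mb were higher in induced cells, by 0.10 to 0.59, and 2 of them were called earlier, 100 kb below and 1000 kb above the gene. A single probe 31.7 kb below the position (chr5:124858245-124858304, mm9) was the most extreme in both pairs. Its timing was -0.19 in KO and 1.04 in control, and 2.60 in induced and 1.01 in non-induced cells. Its late signal was 905 in KO and 514 in control, and 82.7 in induced and 179 in non-induced cells, while its early signal was 869 in KO and 1055 in control, and 558 in induced and 384 in non-induced cells.

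Suv39h2, a trimethylase of H3 lysine 9, lies 0.36 Mb from the first probe of chromosome 2, in a late stretch. From 700 kb above the gene the profile was above 0 in induced and non-induced cells. In control it was 0.27 at 700 kb and -0.011 at 1000 kb above, and in KO it was -0.29 and -0.45 there. In KO 6 of the 17 probes at Suv39h2 lay above 0 and 3 did in control, and in induced cells none did and in non-induced cells 1 did. KO was earlier than control by 0.27 ± 0.10, with 12 probes higher and 5 lower, and induced minus non-induced was -0.27 ± 0.057, with 15 of 17 probes lower in induced cells. Neither was called. The KO difference lay above 84.0% of windows, and the induced difference of -0.27 above 37.4% of windows, so the second is close to the middle of its background. In KO the early channel was higher by 0.55 ± 0.12 and the late channel by 0.24 ± 0.14, beside a higher total signal of 0.40 ± 0.12 whose part was not tested. RefSeq lists Olah, Meig1 and Dclre1c on the lower side and Hspa14 and Cdnf on the higher side, where Meig1 is needed for spermatid formation and Dclre1c encodes the nuclease Artemis of DNA end joining.

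The stretch differed more in KO around the gene than at it. The profile in control stayed between -0.58 and -0.25 from the first window, 400 kb below, to 500 kb above the gene and crossed 0 at 700 kb above. In KO it stood between -0.17 and 0.10 up to 100 kb above the gene, reached 0.42 at 200 kb above, and then dropped to -1.03 at 500 kb and -1.02 at 600 kb above, where control had -0.41 and -0.078. Of 15 overlapping windows within 1 Mb, 5 were called earlier in KO, with the highest difference of 0.67 ± 0.077 at 200 kb above. Another 2 were called later, with the lowest difference of -0.94 ± 0.22 at 600 kb above. Over all windows of the genome 8.06% were called earlier and 22.1% later in this pair. The KO array thus had higher timing than control up to 400 kb above the gene and lower timing from 500 to 1300 kb above it, and neighbouring windows share probes. The windows at 500 and 600 kb hold 7 probes each. In induced cells all 15 windows were lower than in non-induced cells, with differences of -0.42 to -0.066. None was called, beside 11.9% later and 0.467% earlier of all windows. The place where the profile crossed 0 was 700 kb above the gene in induced and 600 kb in non-induced cells.

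**Figure D3:**
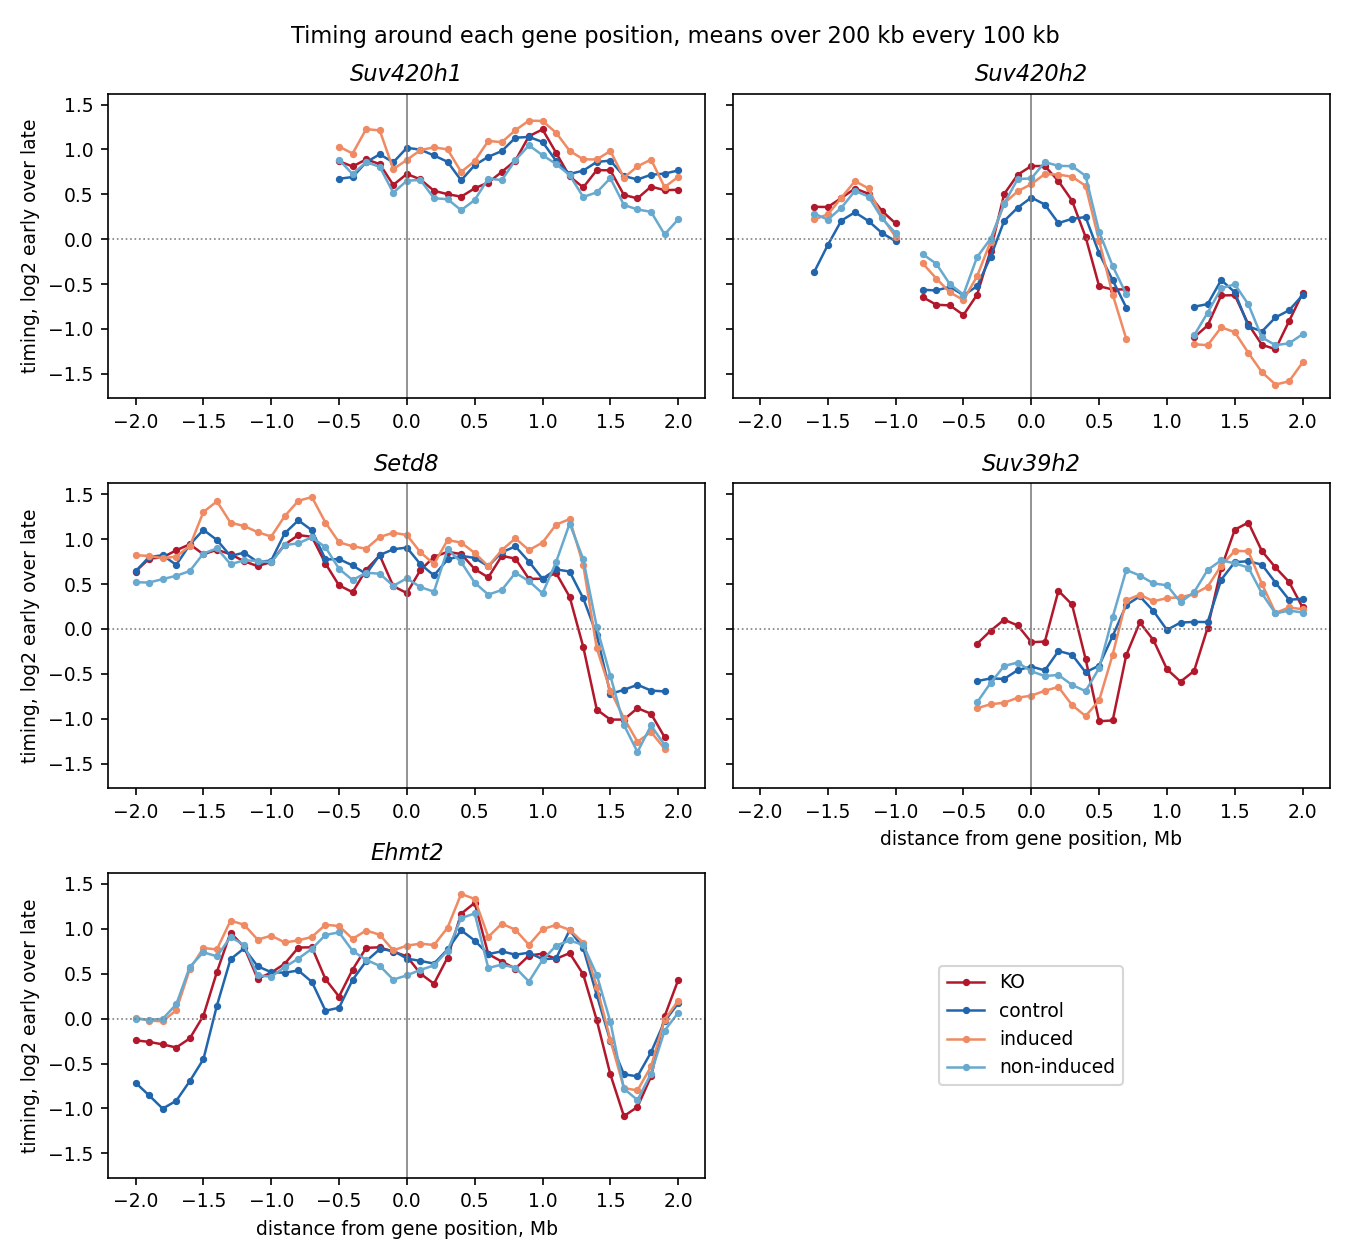
Timing (log2 of early over late signal, y axis) in overlapping windows of 200 kb every 100 kb against distance from each gene position in Mb (x axis), for the KO, control, induced and non-induced arrays. Suv420h1 and Setd8 lie inside broad early domains, Suv420h2 in a narrow one, and at Suv39h2 the KO line stands above control near the gene and at -1.02, against -0.078 in control, 600 kb above it.

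Ehmt2 lies on chromosome 17 in a broad early stretch. Below the gene its profile first fell below 0 at 1600 kb in KO and 1500 kb in control. In induced and non-induced cells it stayed near 0 there, at -0.031 and -0.0028 at 1800 kb below and at 0.0078 and 0.00075 at 2000 kb below. Above the gene it first fell below 0 at 1400 kb in KO, where it was -0.018, and at 1500 kb on the other arrays. Mean timing was 0.69 ± 0.135 in KO and 0.67 ± 0.125 in control, and 0.81 ± 0.14 in induced and 0.48 ± 0.16 in non-induced cells (SE, n = 21 probes). KO minus control was 0.025 ± 0.077, with 10 probes higher and 11 lower, so no difference was detectable beyond the scatter of probes, and its sign was not kept in all settings. Induced minus non-induced was 0.33 ± 0.062, with 19 of 21 probes higher in induced cells, above 94.9% of windows but not called. With arrays scaled to the same spread it was 0.15 ± 0.078. All 21 windows within 1 Mb were higher in induced cells too, by 0.070 to 0.46. The early channel differed by 0.16 ± 0.067 and the late channel by -0.23 ± 0.090. The RefSeq neighbours of Ehmt2 are Cfb, C2 and Zbtb12 on the lower side and Slc44a4, Neu1 and Hspa1b on the higher side, among them the complement genes Cfb and C2 and the lysosomal sialidase gene Neu1.

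Over the 5 members the median difference was 0.025 in KO minus control and 0.23 in induced minus non-induced, where the medians of all windows were -0.16 and -0.13. In the KO pair 1 member of 5 was called later and none earlier, beside 22.1% and 8.06% of all windows, and in the induced pair none was called, beside 11.9% later and 0.467% earlier. A count of 1 in 5 is near the background share. Differences past 3 SE, whatever their size, were found at Suv420h2 and Setd8 in KO and at Setd8, Suv39h2 and Ehmt2 in induced cells. With arrays scaled to the same spread, those in induced cells fell below 3 SE. They were then 0.26 ± 0.092 at Setd8, -0.10 ± 0.057 at Suv39h2 and 0.15 ± 0.078 at Ehmt2. Suv420h2 then passed 3 SE in induced cells (-0.22 ± 0.065) but not in KO (0.21 ± 0.10). In KO Suv420h1 (-0.55 ± 0.16) and Suv39h2 (0.37 ± 0.12) passed under this scaling, as did Setd8 (-0.73 ± 0.13). Relative to the median difference of all windows, the main differences in KO were -0.13 at Suv420h1, 0.51 at Suv420h2, -0.35 at Setd8, 0.43 at Suv39h2 and 0.18 at Ehmt2. In induced cells they were 0.37 at Suv420h1, 0.072 at Suv420h2, 0.62 at Setd8, -0.14 at Suv39h2 and 0.47 at Ehmt2.

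The control and the non-induced array were also set beside each other. Non-induced cells are labelled a mutant and lay on the other slide, so this gap is not a background for the pairs. Non-induced minus control was -0.37 ± 0.13 at Suv420h1, 0.21 ± 0.091 at Suv420h2, -0.34 ± 0.15 at Setd8, -0.054 ± 0.12 at Suv39h2 and -0.19 ± 0.13 at Ehmt2. At Suv420h1 this gap exceeded in size the differences of both pairs, -0.29 ± 0.13 in KO and 0.23 ± 0.081 in induced cells. At Setd8 it was smaller than either, -0.51 ± 0.11 in KO and 0.48 ± 0.099 in induced cells. In size, the ranges of 1 SE overlapped in each case. The cells and the slide both differ between these arrays, and their parts cannot be told apart.

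**Figure D4:**
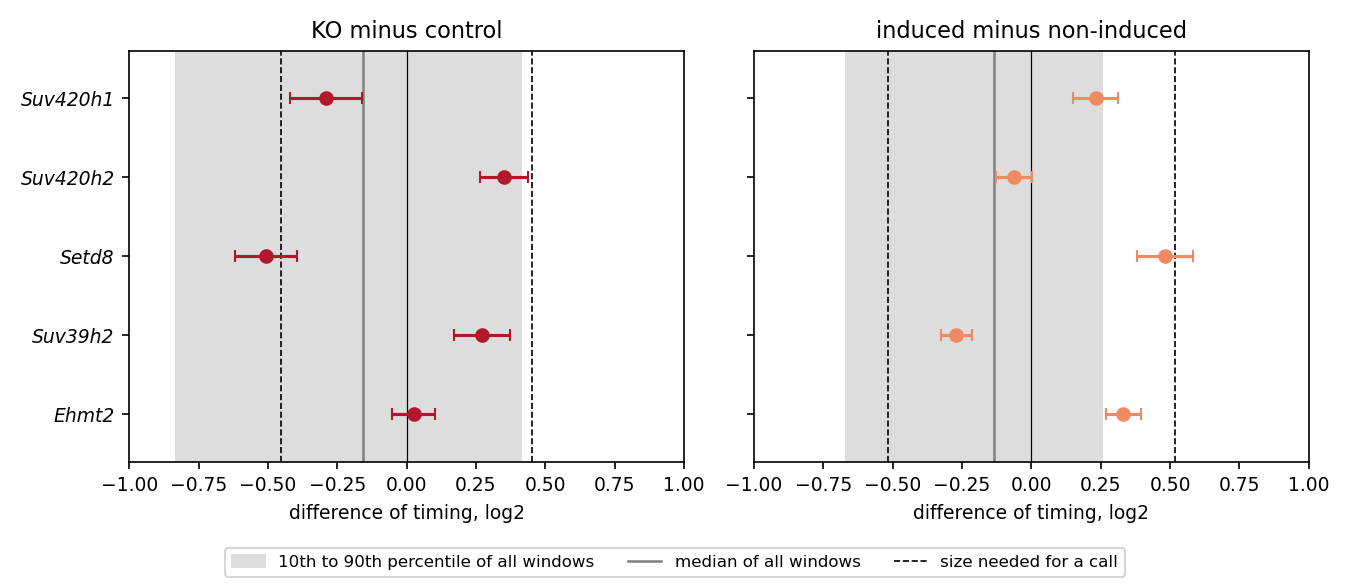
Difference of timing (log2, x axis) at each gene, KO minus control on the left and induced minus non-induced on the right, with the SE over 17 to 21 probes as bars. Grey bands span the 10th to 90th percentile of 12000 windows, the grey line is their median, and dashed lines mark the size needed for a call (0.45 and 0.52), which Setd8 passes at -0.51 in KO.

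Most differences kept their sign under the other processing settings, but some of them came within 1 SE of 0. Under 10 other settings Setd8 in KO ranged from -0.73 to -0.18 and in induced cells from 0.26 to 0.73, and Suv39h2 ranged from 0.13 to 0.50 in KO and from -0.31 to -0.019 in induced cells. Suv420h1 ranged from -0.55 to -0.059 in KO and from 0.027 to 0.48 in induced cells, and Suv420h2 in KO from 0.20 to 0.58. Ehmt2 in induced cells ranged from 0.15 to 0.58. Once array spreads had been made equal, Suv420h1 in induced cells stood at 0.027 ± 0.088. After loess, Suv420h1 in KO stood at -0.079 ± 0.12. Centring on the median window left Suv420h1 in KO at -0.059 ± 0.13 and Suv39h2 in induced cells at -0.019 ± 0.057. Each of these values lay within 1 SE of 0, so their direction is not settled. The 2 differences nearest to 0 in the main setting took either sign. They ranged from -0.22 to 0.19 for Suv420h2 in induced cells and from -0.15 to 0.26 for Ehmt2 in KO.

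**Figure D5:**
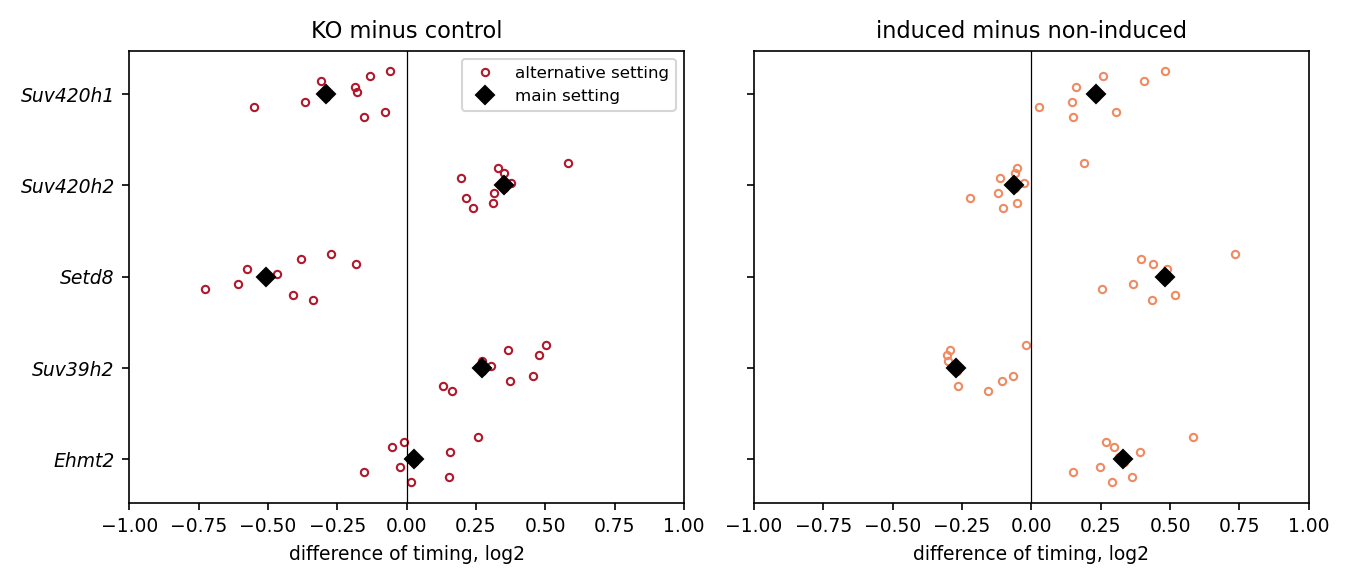
Difference of timing (log2, x axis) at each gene in the main setting (black diamonds) and under 10 other settings (open circles), KO minus control on the left and induced minus non-induced on the right. Setd8 stays below 0 in KO and above 0 in induced cells, while Ehmt2 in KO and Suv420h2 in induced cells take either sign.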

How the data were processed

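The authors read 4 arrays of 2 colours with Agilent Feature Extraction, version 11.5.1.1 per the file headers and 9.1 per the submitters' processing notes. Per the file headers, each channel's deposited processed signal is a background-subtracted intensity multiplied by 1 dye factor (green 4.75 to 6.47, red 1.77 to 4.02). The log10 ratio the authors deposited puts late over early. It equalled the series value table in all 174305 genomic spots per array, and its median was -0.021 in KO and 0.0061 in control, and -0.015 in induced and -0.0044 in non-induced cells. Other columns used are flags per the file headers.

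Timing here is log2 of the early processed signal over the late one. After spots flagged as outliers (154 to 447 an array) had been dropped, replicate spots were averaged and arrays were centred on autosomal probes, with no loess or quantile step. There were 170183 probes on the autosomes and X at a median spacing of 10879 bp, and 169660 could be used. Both channels were well above background at 89.1% to 94.9% of spots, and the number of arrays limits the precision. Windows needed 5 probes, and calls carry no p-value. The genes named are the 5 given, with the lowest and highest probe of a stretch. The members and lists were chosen with earlier results of these data known. Other genes of the pathway were not placed, since the files pair no gene names with probes. The calling step was also run on simulated probes with independent noise and known shifts. That simulation built in no difference of spread or centring between arrays, so it does not bear on calls that move with these. Alternatives covered background correction (on median signals), loess, scaling, quantile normalization, the deposited table, dim probes, radius, summary, centring and threshold. Python 3.11.15, numpy 2.4.6, pandas 2.3.3, matplotlib 3.10.9, R 4.3.3 and limma 3.58.1 were used.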

Additional observations from a re-analysis of the deposited data

Results flagged for a closer look

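The timing difference ran in opposite directions in the KO and the induced pair at 4 of the 5 genes, each with 1 array a group, and the difference between the pairs was not tested. Setd8 stood at -0.51 for KO minus control and at 0.48 for induced minus non-induced, both more than 3 SE over probes from 0. With arrays scaled to the same spread its induced difference was 0.26 ± 0.092, less than 3 SE from 0. Suv39h2 stood at 0.27 in KO and -0.27 in induced cells, and Suv420h1 at -0.29 in KO and 0.23 in induced cells. Once array spreads had been made equal, the induced difference at Suv420h1 was 0.027 ± 0.088, within 1 SE of 0. At the 5 probes nearest to Suv420h1 the differences were -0.11 in KO and -0.095 in induced cells, of the same sign and each within 1 SE of 0. Suv420h2 stood at 0.35 in KO and at -0.063 in induced cells, the second within 1 SE of 0. Centred on the median window, Suv420h2 stood above 0 in both pairs, at 0.58 in KO and 0.19 in induced cells, which leaves 3 of the 5 genes. Among these, Suv39h2 in induced cells was then -0.019 ± 0.057 and Suv420h1 in KO -0.059 ± 0.13, each within 1 SE of 0. Setd8 was then -0.27 ± 0.11 in KO and 0.73 ± 0.099 in induced cells. Other settings added Ehmt2 to the genes with opposite signs. With arrays scaled to the same spread it was -0.15 ± 0.086 in KO and 0.15 ± 0.078 in induced cells. After quantile normalization, within 250 kb and with the median over probes it was also below 0 in KO, there within 1 SE of 0, and above 0 in induced cells. In the main setting, opposite signs in the pairs were found in 34.1% of all 12000 windows. This share was not computed for other settings.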

How the results depend on the processing

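No paired analysis was possible because each group has 1 array, and no replicate could be left out. Of 200 timing levels (5 genes, 4 arrays, 10 settings), 198 kept their sign, and both exceptions were Suv39h2 in KO, at up to 0.24. Scaling multiplies a level by a positive factor, so it could not change the sign of a level. The deposited table holds nearly the same ratios as the main setting, so it is no separate check of levels or differences. The 10 differences between arrays kept their sign under all 10 settings except Suv420h2 in induced cells and Ehmt2 in KO. Among those that kept it, Suv420h1 in both pairs and Suv39h2 in induced cells came within 1 SE of 0 in some settings. The median over the genes, 0.025 in KO, was 0.13 with loess, -0.15 with arrays scaled to the same spread, 0.155 within 50 kb and 0.26 centred on the median window. In induced cells, 0.23 became 0.15 with normexp, 0.31 with loess, 0.027 scaled, 0.15 after quantile normalization, 0.16 within 50 kb, 0.30 within 250 kb and 0.48 centred on the median window. The share of windows called, 30.2% in KO, was 20.0% scaled and 18.7% after quantile normalization. In induced cells, 12.4% became 2.77% with normexp, 1.93% scaled, 1.32% after quantile normalization, 5.98% with probes well above background and 19.1% without the limit of 3 SE. The later call of Setd8 in KO, 1 gene, went to 0 with normexp, loess, 250 kb, the median over probes and centring on the median window. Earlier calls in KO, 0 in the main setting, were 1 within 250 kb (Suv39h2, 0.48) and 2 centred on the median window (Suv420h2, 0.58, and Suv39h2, 0.50). In induced cells they were 1 with normexp (Setd8, 0.43), 1 with loess (Setd8, 0.52) and 2 centred on the median window (Setd8, 0.73, and Ehmt2, 0.58). The total signal of the central Suv420h1 probes in induced minus non-induced cells, -0.24, was -0.088 relative to probes within 1 Mb. The causes of these shifts were not tested.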
